A study of Cyanidioschyzon merolae with 29 samples.

Results

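The vesicle traffic and protein secretion genes of the red microalga *C. merolae* were 84 of the 4984 genes in the table of counts. They were the nuclear genes whose annotated description holds a term for the coatomer, clathrin, an adaptin or AP complex, a SNARE or syntaxin, a Rab GTPase, an ADP-ribosylation factor (Arf), vacuolar protein sorting, a vesicle, the Golgi apparatus, the endoplasmic reticulum (ER), the signal recognition particle (SRP), a signal peptidase or Sec61. Cultures of strain NIES-3377, a unicellular alga from hot acidic springs, were started in acidic medium with nickel sulfate at 3 or 1 mM or with no added nickel, and were grown in continuous light. Poly(A)-selected RNA was sequenced from 3 cultures per condition at 3 mM Ni on days 5, 10 and 15, from 3, 3 and 2 cultures at 1 mM Ni on the same days, and from 3 untreated cultures on each of days 0, 5, 10 and 15. Cultures of all doses were sampled on the same days and not at matched cell densities, so the dose and the growth stage of a culture cannot be told apart.

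Proteins bound for the cell surface, the vacuole or the membranes between them enter the ER through the Sec61 channel, guided by the SRP, and lose their signal peptide to a signal peptidase. COPII-coated vesicles carry them to the Golgi apparatus, COPI-coated vesicles return material to the ER, and clathrin with its adaptors forms vesicles at the Golgi apparatus and the plasma membrane. Arf and Rab GTPases recruit coats and tethers, and SNAREs, helped by Sec1/Munc18 (SM) proteins, fuse each vesicle with its target. *C. merolae* has a minimal set of organelles and small gene families, and many of these factors are encoded by a single gene.

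Depth ranged between 2602444 and 4067107 counts per library with a median of 3121668. Of the 84 genes, 81 passed the filter on low counts and were tested, and their median count was 218 to 459 in a library. The other 3 were *CMC018C*, similar to the SNARE VAMP7, with 0 to 8 counts per library, *CMG073C*, a probable clathrin assembly protein AP180, with 0 to 3 counts, and the syntaxin-like *CMK304C* with 0 to 4 counts. The untreated library C3 of day 5 and the untreated library C1 of day 15 stood furthest from the other libraries of their groups, and C1 of day 15 had 6.82% of its counts on chloroplast-encoded genes, against 2.10% to 5.75% in all other libraries. For the named results that moved most without 1 of them, the value without it is also given, a choice made after the data were seen.

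Levels are given as CPM, counts scaled to a common library size with TMM factors, and were divided by the coding length to compare genes. The median over the 81 tested genes was 75.1 CPM per kb. The highest level was that of *CMQ074C*, Arf B1A, a GTPase that recruits coats to Golgi membranes, at 918 CPM per kb, followed by *CML023C*, a transitional ER ATPase of the Cdc48 type that extracts proteins from membranes, at 568 CPM per kb. The Rab GTPase *CMD062C* had 443 CPM per kb and the chloroplast SRP subunit *CMC066C*, which delivers light-harvesting proteins to thylakoids, 339 CPM per kb. The coatomer subunits ranged between 82.4 CPM per kb for gamma (*CMP053C*) and 224 CPM per kb for epsilon (*CMD014C*). *CMG098C*, similar to the vesicle membrane protein p24, a cargo receptor of COP vesicles, was the lowest at 3.63 CPM per kb, and its log2 fold change at 3 mM Ni on day 15, 1.56 with an SE of 0.67, did not pass the test (edgeR adjusted p = 0.132). Together the 84 genes took 1.30% to 1.67% of the counts of a library.

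The first question was which of these genes differed between cultures at 3 mM Ni and untreated cultures of the same day. Day 10 had the most calls, 8 genes higher and 9 lower of the 81 tested at an edgeR adjusted p under 0.05, beside 15% higher and 14.2% lower among all 4796 genes tested. On day 5, 1 gene was higher and 2 were lower, beside 5.42% higher and 4.77% lower among all genes. On day 15, 1 gene was higher and 3 were lower, beside 5.71% higher and 4.59% lower among all genes. In each of the 3 comparisons the share called was below that of all genes in both directions. The values are shares of the RNA of a whole culture, so fewer cells that express a gene and less of its RNA per cell cannot be told apart. The median log2 fold change over the 81 genes was 0.06, -0.03 and -0.06 on days 5, 10 and 15, beside -0.04, -0.02 and -0.04 over all genes, and these differences between medians were small beside those of single genes. The 3 libraries of each group did not overlap for 26 genes on day 5 (32.1%, beside 29.7% of all genes), for 30 on day 10 (37.0%, beside 47.2%) and for 18 on day 15 (22.2%, beside 26.6%).

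In all, 22 of the 81 genes were called on at least 1 day at 3 mM Ni, 9 of them higher and 13 lower, and no gene was called in both directions. The Rab GTPase *CMS346C* and the Rab11-binding protein gene *CMA125C* were called on both day 5 and day 10, and no gene was called on both day 10 and day 15. edgeR called the other 59 genes at neither dose on any day. DESeq2 called 4, 18 and 7 of the 81 genes at 3 mM Ni on days 5, 10 and 15 and 0 at 1 mM Ni. By role, DESeq2 called 1 ER resident gene on day 5, where edgeR called 0. It called 2 Arf genes on day 10 and 2 on day 15, where edgeR called 1 on each day. On day 15 it called 2 Rab genes and 1 tether gene, where edgeR called 1 and 0. The shares of all genes called by DESeq2 are not given here, so its counts cannot be set beside them. The edgeR counts depended on single libraries. The day 10 count of 17 was 10 without library 3A, 9 without 3B and 11 without the untreated C5 of that day. The day 5 count of 3 was 10 without the untreated C3 of day 5, 6 without the untreated C1 of day 15, 5 without C4 of day 0, and 0 without 3C, 3D or the untreated C5 of day 5. It was 1 without the untreated C4 of day 5, any library at 1 mM Ni of day 5 or day 10, 3A or the untreated C5 of day 10, or 3D or 3E of day 15. The day 15 count of 4 was 7 without the untreated C3 of day 5 or the untreated C4 of day 15, 2 without 3C, 1 without 3E or the untreated C1, and 0 without 3D of day 15. Among all genes, the share called on day 5 was 24.1% without the untreated C3 of day 5 and 17.0% without C1 of day 15. On day 15 these shares were 13.6% and 3.05%. The shares of all genes in the other fits are not given here.

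By role, the genes higher on day 10 lay in ER entry, cargo export, a clathrin adaptor, Rab GTPases and syntaxins, and those lower lay in vacuolar sorting, an Arf-like GTPase, SM proteins, a Golgi tether and single ER and Rab genes.

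**Figure D1:**
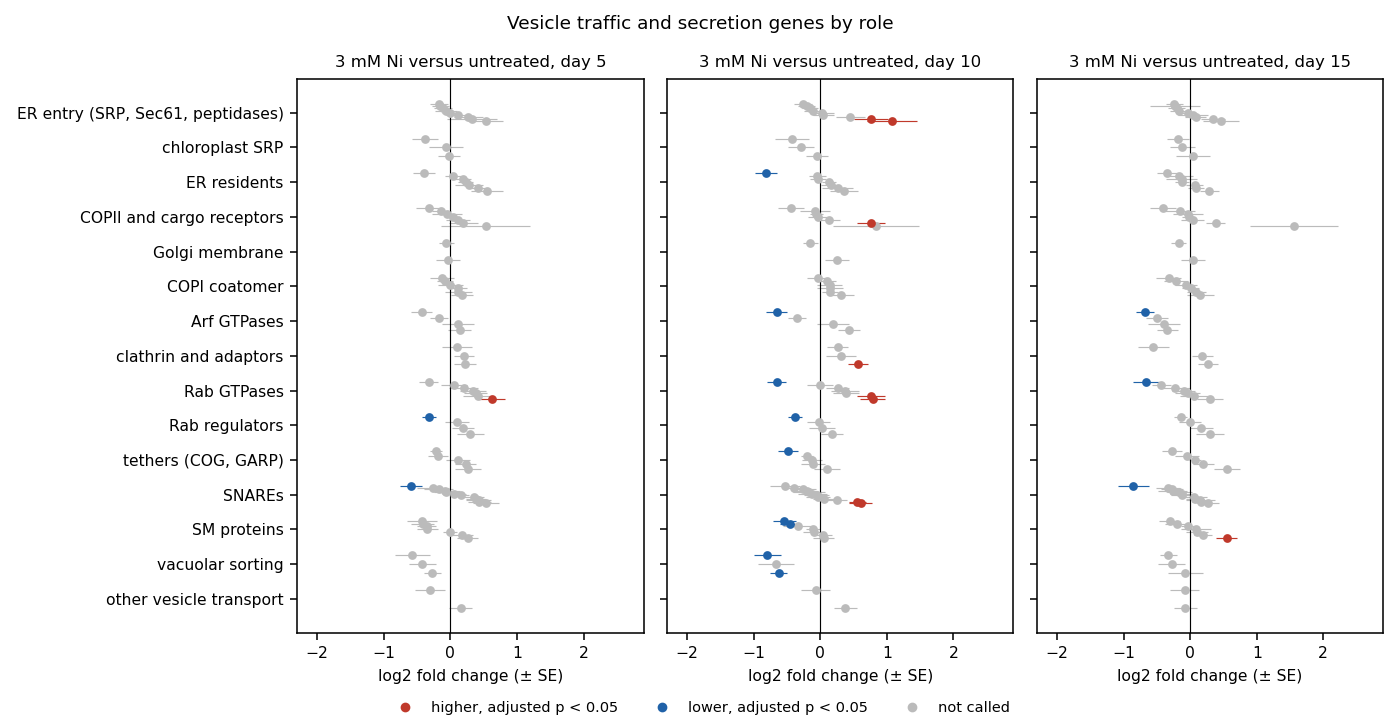
Log2 fold change of the 81 tested genes at 3 mM Ni relative to untreated cultures on days 5, 10 and 15 (horizontal axes, each point 1 gene with its SE), sorted by role down the page. Red points are higher and blue points lower at an edgeR adjusted p under 0.05. Day 10 shows 8 red and 9 blue points, against 1 and 2 on day 5 and 1 and 3 on day 15.

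At the entrance to the ER, 2 of the 9 genes were higher at 3 mM Ni on day 10 and none was lower. *CMK192C*, the Sec61 alpha subunit that forms the channel, averaged 321 ± 89.4 CPM at 3 mM Ni and 152 ± 30.0 CPM in untreated cultures (SD, n = 3 each, as for all means that follow), the largest called increase among the 81 genes (log2 fold change 1.08 ± 0.38, adjusted p = 0.0346, edgeR, where ± is the SE of the fit, as in all fold changes). The groups did not overlap, but the call was lost when any of 4 of the 6 libraries was left out, with an edgeR adjusted p of up to 0.147. On day 5 the untreated libraries disagreed: C3 had 338 CPM, against 91.7 and 89.5 CPM in C4 and C5. With C3 the day 5 difference at 3 mM Ni was 0.32 ± 0.38 (edgeR adjusted p = 0.61), and without it 1.26 ± 0.31, adjusted p = 0.00599. *CMO086C*, similar to the microsomal signal peptidase that removes signal peptides, averaged 27.0 ± 4.70 CPM at 3 mM Ni on day 10 and 16.0 ± 3.56 CPM in untreated cultures (log2 fold change 0.76 ± 0.26, adjusted p = 0.0303, edgeR). Its groups did not overlap, and the call was kept in 2 of the 6 fits without a library of either group.

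The 4 SRP subunits had smaller differences on day 10, all with an edgeR adjusted p above the threshold. The log2 fold changes at 3 mM Ni were -0.20 for SRP54 (*CMO152C*), which binds the signal sequence, -0.16 for SRP68 (*CML086C*), -0.10 for SRP72 (*CMQ194C*) and 0.03 for SRP19 (*CMR091C*). The SRP receptor alpha subunit *CME016C* had 0.05, and *CMQ208C*, similar to SEC63, a partner of the Sec61 channel with the highest mean CPM of the group, -0.26. *CMS130C*, annotated as signal peptidase I, had 0.45 ± 0.22 (edgeR adjusted p = 0.127). Of the 3 genes of the chloroplast SRP pathway none was called by edgeR in any of the 6 comparisons of a dose with the untreated control, and none had an unadjusted p under 0.05 or was called by DESeq2. Without the untreated C1 of day 15, SRP54 (*CMC066C*) passed at 3 mM Ni on day 5 (log2 fold change -0.38 ± 0.13, adjusted p = 0.0409 by edgeR). On day 10 their log2 fold changes at 3 mM Ni were -0.29 for SRP54 (*CMC066C*), -0.43 for SRP43 (*CMT161C*) and -0.05 for the receptor FTSY (*CMN250C*).

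Among the 7 genes of ER residents, 1 was lower at 3 mM Ni on day 10. *CMI165C*, annotated only as similar to an ER resident protein (build ASM9120v1, chromosome 9, 458282 to 459706), had 52.2, 43.8 and 65.6 CPM at 3 mM Ni and 84.8, 96.6 and 103 CPM in untreated cultures. Every library at 3 mM Ni was below every untreated library (log2 fold change -0.82 ± 0.16, adjusted p = 0.00112, edgeR), the smallest adjusted p among the 81 genes, and the call was kept without any single library of the 6. Its log2 fold change was -0.40 ± 0.16 on day 5 (edgeR adjusted p = 0.119) and -0.34 ± 0.16 on day 15 (adjusted p = 0.167). The other 6 genes did not pass the test on any day, among them ERO1 (*CMC022C*), which drives disulfide formation (0.42 ± 0.14 on day 5, edgeR adjusted p = 0.0638, and 0.0442 without the untreated C1 of day 15), and the most abundant one, *CML023C* (0.35 ± 0.21 on day 10, adjusted p = 0.206). A further transitional ER ATPase, *CMR199C*, depended on the untreated library C3 of day 5, with a log2 fold change at 3 mM Ni of 0.55 ± 0.24 (edgeR adjusted p = 0.139) with it and 1.08 ± 0.19, adjusted p = 5.79e-04 without it.

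Between the ER and the Golgi apparatus, 1 of the 7 genes of COPII coats and cargo receptors was called. *CME060C*, similar to Erv14, a receptor that loads membrane proteins into COPII vesicles in yeast, had 60.5, 65.0 and 33.2 CPM at 3 mM Ni on day 10 and 28.4, 31.8 and 33.2 CPM in untreated cultures. Libraries 3A and 3B lay well above the untreated libraries, but 3C was level with the highest of them and the groups overlapped (log2 fold change 0.76 ± 0.22, adjusted p = 0.0111, edgeR), and the call was lost without 3A or without 3B. The COPII coat subunits had log2 fold changes of -0.06 for Sec23 (*CMF170C*), -0.44 and -0.03 for the Sec24 genes *CMQ471C* and *CMQ380C*, 0.13 for Sec13 (*CMJ112C*) and -0.08 for Sec31 (*CMR203C*), with edgeR adjusted p between 0.093 and 0.876. Of the 6 coatomer subunits of the COPI coat none was called by edgeR in any of the 6 comparisons with the untreated control, and none by DESeq2, while 2 of the 36 tests had an unadjusted p under 0.05, both at 1 mM Ni on day 5. Without the untreated C3 of day 5, beta prime (*CMT617C*) was called on day 5 at 3 mM Ni (log2 fold change 0.49 ± 0.14, adjusted p = 0.0147 by edgeR) and at 1 mM Ni (0.71 ± 0.14, adjusted p = 0.0013). With C1 of day 15 left out as well, alpha, beta and gamma were also called at 1 mM Ni on day 5. On day 10 at 3 mM Ni their log2 fold changes lay between -0.04 for beta prime (*CMT617C*) and 0.31 for beta (*CMG048C*), with alpha (*CMD156C*) at 0.14, gamma (*CMP053C*) at 0.09, epsilon (*CMD014C*) at 0.15 and zeta (*CMN247C*) at 0.14. The Golgi membrane protein genes *CMR413C* (TVP23) and *CMI302C* (GOT1) had -0.15 and 0.25, and neither passed the test.

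The 4 Arf genes, whose products recruit COPI and clathrin adaptors in other eukaryotes, differed among themselves. *CMT181C*, similar to an Arf (chromosome 20, 468146 to 468922), had 101, 95.9 and 111 CPM at 3 mM Ni on day 10 and 201, 119 and 164 CPM in untreated cultures. The groups did not overlap (log2 fold change -0.65 ± 0.16, adjusted p = 0.00414, edgeR), and the call was lost only without the untreated library C1, the highest of them. Arf 3 (*CMT157C*, chromosome 20, 411985 to 412521) had 113, 95.1 and 101 CPM at 3 mM Ni on day 15 and 216, 149 and 132 CPM in untreated cultures. All 3 libraries at 3 mM Ni were below the untreated ones (log2 fold change -0.68 ± 0.14, adjusted p = 0.00704, edgeR), and without the untreated library C1, which had the highest value, the difference was -0.44 ± 0.11, adjusted p = 0.0364. The call was lost only without library 3D, with an edgeR adjusted p of 0.0515. Arf B1A (*CMQ074C*) averaged 499.5 ± 42.9 CPM at 3 mM Ni on day 10 and 371 ± 20.1 CPM in untreated cultures (log2 fold change 0.43 ± 0.17, adjusted p = 0.0558, edgeR), and on day 15 465 ± 19.8 CPM at 3 mM Ni and 655 ± 197 CPM in untreated cultures (log2 fold change -0.49 ± 0.17, adjusted p = 0.0597). Neither passed the threshold, although the groups did not overlap on either day. The untreated library C1 of day 15 had 883 CPM of Arf B1A, against 540.2 and 542 CPM in C3 and C4, and without it the day 15 difference was -0.22 ± 0.14, adjusted p = 0.419 by edgeR. Without C1 the day 10 difference was 0.43 ± 0.13, adjusted p = 0.0122 by edgeR, and without the untreated C3 of day 5 both days passed the threshold (edgeR adjusted p = 0.041 on day 10 and 0.0432 on day 15).

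Of the 3 tested clathrin genes, 1 was higher. *CMD102C*, a small chain of a clathrin adaptor complex (chromosome 4, 247748 to 248401), had 162, 166 and 129 CPM at 3 mM Ni on day 10 and 120.3, 88.0 and 99.9 CPM in untreated cultures. The groups were separated by a narrow gap (log2 fold change 0.57 ± 0.15, adjusted p = 0.00673, edgeR), and the call was kept without any single library of the 6. The adaptor medium subunit *CMO202C* had a log2 fold change of 0.26 ± 0.16 (edgeR adjusted p = 0.231), and the clathrin heavy chain *CMF103C* of 0.31 ± 0.23 (adjusted p = 0.317).

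Rab GTPases, which mark membranes for tethering, held 2 genes higher and 1 lower among 7 on day 10. *CMS346C* (chromosome 19, 886737 to 887405) had 70.1, 88.2 and 50.9 CPM at 3 mM Ni on day 10 and 39.2, 43.6 and 38.6 CPM in untreated cultures (log2 fold change 0.79 ± 0.19, adjusted p = 0.00512, edgeR). On day 5 it had 66.6, 56.9 and 59.3 CPM at 3 mM Ni and 40.4, 45.5 and 33.3 CPM in untreated cultures (log2 fold change 0.62 ± 0.20, adjusted p = 0.0468 by edgeR). The groups did not overlap on either day, and of the 6 fits without a library of either group the day 10 call was lost only without 3B, while the day 5 call was kept only without the untreated C3. On day 15 its log2 fold change was 0.30 ± 0.20 (edgeR adjusted p = 0.345).

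A further Rab gene, *CMD183C* (chromosome 4, 482715 to 483464), had 134, 139 and 86.2 CPM at 3 mM Ni on day 10 and 67.4, 72.1 and 72.7 CPM in untreated cultures. The groups did not overlap (log2 fold change 0.76 ± 0.21, adjusted p = 0.0111, edgeR), and the call was lost without 3A or without 3B. *CMG153C* (chromosome 7, 388981 to 389877) went the other way, with 137, 135 and 188 CPM at 3 mM Ni and 259, 236 and 233 CPM in untreated cultures. Every library at 3 mM Ni was lower (log2 fold change -0.66 ± 0.14, adjusted p = 0.00217, edgeR), and this call was kept without any single library of the 6. The most abundant Rab gene, *CMD062C*, had 0.39 ± 0.19 (edgeR adjusted p = 0.134). Rab6 (*CMQ122C*), which acts in traffic at the Golgi apparatus, was lower on day 15, with 104 ± 14.1 CPM at 3 mM Ni and 165 ± 53.4 CPM in untreated cultures (log2 fold change -0.66 ± 0.20, adjusted p = 0.0347, edgeR). Without the untreated library C1 the difference was -0.37 and the edgeR adjusted p 0.261.

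Among the 4 Rab regulators, *CMA125C*, similar to a Rab11-binding protein (chromosome 1, 360728 to 364168), was lower on 2 days. It had 205, 199 and 206 CPM at 3 mM Ni on day 10 and 271, 261 and 261 CPM in untreated cultures (log2 fold change -0.38 ± 0.10, adjusted p = 0.00862, edgeR). On day 5 it had 179, 207 and 207 CPM at 3 mM Ni and 221, 248 and 272 CPM in untreated cultures (log2 fold change -0.32 ± 0.10, adjusted p = 0.0473 by edgeR). The groups did not overlap on either day and the spread within each was small on day 10, where the call was kept without any single library, while on day 5 it was kept in 1 of the 6 fits, that without the untreated C3. Rab GDI (*CML223C*), which draws Rab proteins off membranes, the prenyl transferase subunit *CMT217C*, which attaches their lipid anchor, and the Rab-GAP *CMT354C*, which switches them off, had log2 fold changes of 0.03, -0.02 and 0.18 on day 10 and did not pass the test.

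**Figure D2:**
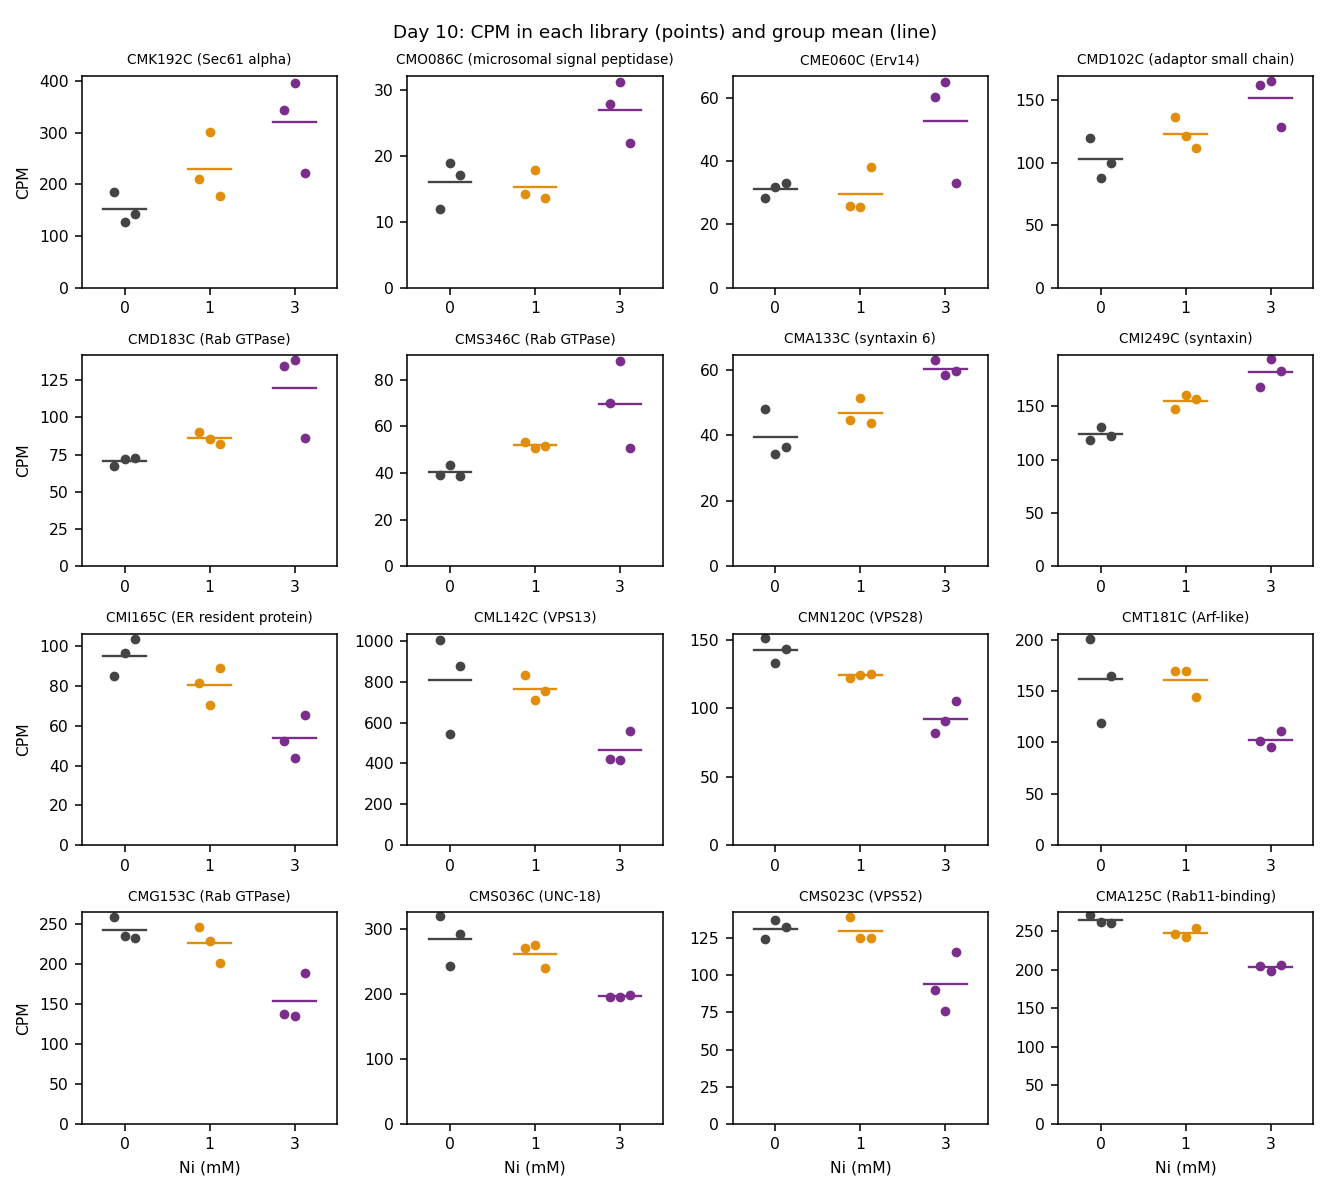
CPM on day 10 of the genes called at 3 mM Ni that day other than *CMI070C* (vertical axes, each from 0), in cultures at 0, 1 and 3 mM Ni. Points are libraries and lines are group means (n = 3 each). The first 8 panels hold the genes that were higher at 3 mM Ni, and the last 8 hold genes that were lower, such as *CMA125C*, whose 3 mM libraries lie between 199 and 206 CPM.

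SNAREs form the complexes that pull a vesicle and its target together. Of the 12 tested, 2 syntaxins were higher at 3 mM Ni on day 10, 1 SNARE was lower on day 5 and 1 on day 15. *CMI249C*, the most abundant SNARE gene and similar to a syntaxin (chromosome 9, 663647 to 664645), had 168, 194 and 183 CPM at 3 mM Ni on day 10 and 118, 131 and 122 CPM in untreated cultures. The groups did not overlap (log2 fold change 0.56 ± 0.12, adjusted p = 0.00269, edgeR), and the call was kept without any single library of the 6. *CMA133C*, similar to syntaxin 6, which acts between the Golgi apparatus and endosomes in animals, averaged 60.3 ± 2.53 CPM at 3 mM Ni and 39.6 ± 7.29 CPM in untreated cultures (log2 fold change 0.61 ± 0.17, adjusted p = 0.0117, edgeR), a call kept in 4 of 6 fits. *CMS441C*, similar to the Golgi SNARE membrin, was lower on day 5, with 83.1 ± 5.45 CPM at 3 mM Ni and 125 ± 21.2 CPM in untreated cultures (log2 fold change -0.59 ± 0.16, adjusted p = 0.0225, edgeR), a call kept in 2 of 6 fits. *CMH010C*, similar to a syntaxin, was lower on day 15, with 69.0 ± 0.364 CPM at 3 mM Ni and 126 ± 76.7 CPM in untreated cultures (log2 fold change -0.85 ± 0.24, adjusted p = 0.0258, edgeR). The untreated library C1 had 214 CPM of it and the other untreated libraries 81.2 and 81.8 CPM, and without C1 the difference was -0.24 with an edgeR adjusted p of 0.349. The other SNAREs ranged on day 10 between -0.53 for the Bet1p-like *CMP339C* and 0.25 for the SNARE-like *CMR144C*.

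SM proteins bind syntaxins and help SNAREs to assemble. Of the 7 genes, 2 were lower on day 10 and 1 was higher on day 15. *CMS036C*, an UNC-18 homolog and the most abundant of them, averaged 196 ± 1.46 CPM at 3 mM Ni and 285 ± 38.6 CPM in untreated cultures (log2 fold change -0.54 ± 0.18, adjusted p = 0.0242, edgeR), a call kept in 2 of 6 fits. *CMI070C*, similar to a syntaxin-binding protein, averaged 179 ± 9.20 CPM at 3 mM Ni and 244 ± 46.6 CPM in untreated cultures (log2 fold change -0.45 ± 0.16, adjusted p = 0.0331, edgeR), and its call was kept in 1 of 6 fits. *CMN090C*, also similar to a syntaxin-binding protein, was higher on day 15, with 69.5 ± 7.13 CPM at 3 mM Ni and 47.4 ± 5.82 CPM in untreated cultures (log2 fold change 0.55 ± 0.16, adjusted p = 0.0284, edgeR), kept in 2 of 6 fits and lost without the untreated C1 (0.53 ± 0.18, adjusted p = 0.0931). The SLY1 genes *CML009C* and *CMR273C*, which act between the ER and the Golgi apparatus in yeast, had -0.10 and -0.09 on day 10.

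Tethers catch vesicles before fusion. Of 5 genes of the COG and GARP complexes, *CMS023C*, similar to the GARP subunit VPS52, was lower on day 10, with 93.9 ± 20.1 CPM at 3 mM Ni and 131 ± 6.55 CPM in untreated cultures (log2 fold change -0.48 ± 0.15, adjusted p = 0.0191, edgeR), a call kept in 2 of 6 fits. Its partner VPS53 (*CMR200C*) had a log2 fold change of -0.13 ± 0.15 (edgeR adjusted p = 0.562), and COG4 (*CMJ219C*), the most abundant tether gene, -0.20 ± 0.09 (adjusted p = 0.107). Of the remaining vesicle transport genes, *CMT399C* and *CMF111C*, neither was called by edgeR or DESeq2 in the 6 comparisons, with 2 of 12 unadjusted p under 0.05. Without the untreated C3 of day 5, *CMT399C* was lower on day 5 at 3 mM Ni (log2 fold change -0.56 ± 0.20, adjusted p = 0.0489 by edgeR) and at 1 mM Ni (-0.80 ± 0.20, adjusted p = 0.00612).

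The 3 vacuolar protein sorting genes all had negative log2 fold changes at 3 mM Ni on day 10, and 2 of them passed the test. *CMN120C*, a homolog of VPS28, a subunit of the ESCRT-I complex that sorts membrane proteins towards the vacuole (chromosome 14, 310128 to 310796), had 81.8, 90.7 and 105 CPM at 3 mM Ni and 151, 133 and 143 CPM in untreated cultures. Every library at 3 mM Ni was below every untreated one (log2 fold change -0.62 ± 0.13, adjusted p = 0.00145, edgeR), and the call was kept without any single library of the 6. *CML142C*, similar to VPS13, a large protein that moves lipids between membranes in yeast and animals (chromosome 12, 336951 to 355013), had 421, 418 and 559.8 CPM at 3 mM Ni and 1007, 543 and 876 CPM in untreated cultures. The library 3C was above the lowest untreated library, C3, so the groups overlapped (log2 fold change -0.80 ± 0.20, adjusted p = 0.00631, edgeR), and the call was lost without the untreated library C1. The second gene similar to VPS13, *CMM176C*, averaged 360.3 ± 28.4 CPM at 3 mM Ni and 572 ± 97.2 CPM in untreated cultures, and did not pass the test (log2 fold change -0.67 ± 0.27, adjusted p = 0.0618, edgeR).

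At 1 mM Ni edgeR called none of the 81 genes on any day, and DESeq2 called none. Among all genes edgeR called 0.48% on day 5, 0.146% on day 10 and 0% on day 15. At an unadjusted p under 0.05 edgeR had 13, 2 and 7 of the 81 genes on days 5, 10 and 15. Among all 4796 genes these were 1128, 420 and 436. On day 10 the syntaxin *CMI249C* had 147, 161 and 156 CPM at 1 mM Ni and 118, 131 and 122 CPM in untreated cultures, without overlap, but did not pass the test (log2 fold change 0.32 ± 0.12, adjusted p = 0.425, edgeR). The Rab gene *CMS346C* had 53.4, 50.9 and 51.8 CPM at 1 mM Ni and 39.2, 43.6 and 38.6 CPM in untreated cultures that day, also without overlap (log2 fold change 0.36 ± 0.19, adjusted p = 0.628, edgeR). The day 5 result rested on the untreated library C3. Without it edgeR called 16 of the 81 genes (19.8%), 11 higher and 5 lower, beside 29.7% of all genes. The higher ones then included the transitional ER ATPase *CMR199C* (log2 fold change 1.24 ± 0.19, adjusted p = 2.95e-04 by edgeR), Sec13 *CMJ112C* (0.69 ± 0.17, adjusted p = 0.00425) and the coatomer beta prime subunit *CMT617C* (0.71 ± 0.14, adjusted p = 0.0013), and the lower ones the UNC-18 homolog *CMS036C* (-0.75 ± 0.16, adjusted p = 0.00191). At 3 mM Ni on day 5 the same omission raised the calls to 10, 4 higher and 6 lower (12.3%, beside 24.1% of all genes). Leaving out C3 of day 5 and C1 of day 15 together gave 24 genes at 1 mM Ni on day 5. At 3 mM Ni it gave 16, 26 and 1 on days 5, 10 and 15, the last being the Arf 3 gene *CMT157C*. These were 29.6%, 19.8%, 32.1% and 1.23% of the 81 genes, beside 40.8%, 33.3%, 41.8% and 6.32% of all genes.

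The doses were also compared with each other. On day 10, 1 gene was higher and 5 were lower at 3 mM than at 1 mM Ni, beside 5% higher and 3.54% lower among all genes. Erv14 (*CME060C*) had 60.5, 65.0 and 33.2 CPM at 3 mM Ni and 25.7, 25.4 and 38.1 CPM at 1 mM Ni, and library 3C fell within the range at 1 mM (log2 fold change 0.82 ± 0.22, adjusted p = 0.0255, edgeR). The Arf-like *CMT181C*, with 101, 95.9 and 111 CPM at 3 mM Ni, had 169, 169 and 145 CPM at 1 mM Ni (log2 fold change -0.65 ± 0.16, adjusted p = 0.0182, edgeR). The groups of *CMT181C* did not overlap, and those of the 4 genes that follow did not either. The Rab gene *CMG153C* had 137, 135 and 188 CPM at 3 mM Ni and 246, 229 and 202 CPM at 1 mM Ni (log2 fold change -0.55 ± 0.14, adjusted p = 0.023, edgeR). The ER resident gene *CMI165C* had 52.2, 43.8 and 65.6 CPM at 3 mM Ni and 81.6, 70.7 and 88.9 CPM at 1 mM Ni (log2 fold change -0.58 ± 0.16, adjusted p = 0.0315, edgeR).

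For the vacuolar sorting genes the doses differed likewise on day 10. VPS13 (*CML142C*) had 421, 418 and 559.8 CPM at 3 mM Ni and 834, 712 and 753 CPM at 1 mM Ni (log2 fold change -0.72 ± 0.20, adjusted p = 0.0328, edgeR). VPS28 (*CMN120C*) had 81.8, 90.7 and 105 CPM at 3 mM Ni and 122, 125 and 125 CPM at 1 mM Ni (log2 fold change -0.42 ± 0.13, adjusted p = 0.0427, edgeR). Each of these 6 calls was kept in only 1 or 2 of the 6 fits without a library of either group. The count was 0 without 3A, 3B, 1A or 1B of day 10, 3 without 1D and 12 without 3C. The shares of all genes in these fits are not given here. On days 5 and 15 edgeR called none of the 81 genes between the doses, beside 0.0834% and 0% of all genes, and DESeq2 called none. At an unadjusted p under 0.05 edgeR had 14 and 2, beside 626 and 213 of all 4796 genes. Without the untreated library C3 of day 5, 1 gene was called on day 5, beside 1.00% of all genes.

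Whether the response at 3 mM Ni changed between days was tested with interaction contrasts. Neither contrast gave a call by edgeR, that of day 10 relative to day 5 or that of day 15 relative to day 10. This held among the 81 genes and among all genes (0% and 0%). At an unadjusted p under 0.05 edgeR had 2 and 14 of the 81 genes, beside 254 and 1058 of all 4796. DESeq2 called 0 and 1 of the 81 genes. For day 15 relative to day 10, edgeR called 3 genes without library 3C of day 10 or the untreated C4 of day 15, and 1 without the untreated C3 of day 5 or of day 15. Without the untreated C3 of day 5, edgeR called 1.79% of all genes for this contrast. The shares of all genes in the other fits are not given here. The smallest adjusted p was that of Arf B1A (*CMQ074C*) for day 15 relative to day 10 (difference of log2 fold changes -0.92 ± 0.24, adjusted p = 0.0811, edgeR). It was -0.65 ± 0.19, adjusted p = 0.182 by edgeR without the untreated C1 of day 15 and -0.92 ± 0.23, adjusted p = 0.0443 without the untreated C3 of day 5. The calls of day 10 that were not made on day 15 were therefore not shown to differ between the days. The syntaxins *CMA133C* and *CMI249C* came next, with -0.72 ± 0.24 (edgeR adjusted p = 0.13) and -0.49 ± 0.18 (adjusted p = 0.143).

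Many of these genes also differed with the age of untreated cultures. Relative to day 0, edgeR called 9 genes higher and 15 lower on day 5 (beside 20.3% and 19.4% of all genes), 19 higher and 13 lower on day 10 (beside 21.1% and 18.9%), and 18 higher and 7 lower on day 15 (beside 19.5% and 16.6%). The day 5 count was 15 without the untreated C5 of day 5, the day 10 count 20 without C2 of day 0, 20 without the untreated C3 and 19 without C5 of day 10, and the day 15 count 14 without C2 of day 0. Comparisons of a dose with the untreated culture of a day share these untreated libraries. Sec61 alpha (*CMK192C*) averaged 625 ± 11.7 CPM on day 0, 173 ± 143 on day 5, 152 ± 30.0 on day 10 and 287 ± 81.6 CPM on day 15 (SD, n = 3 each). Its log2 fold changes relative to day 0 were -1.85, -2.04 and -1.12 (edgeR adjusted p = 7.38e-04, 2.74e-04 and 0.0235), the largest decreases among the 81 genes on each day. Every untreated library of a later day was below the day 0 libraries. Without the untreated C3 of day 5 the day 5 value was -2.79 ± 0.33, adjusted p = 1.02e-06 by edgeR, and without the untreated C1 of day 15 the day 15 value was -0.91 ± 0.42, adjusted p = 0.101, so that call was lost.

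By role, the calls against day 0 ran in both directions. Of the 7 COPII and cargo genes, 2 were lower on each of the 3 days and 1 was higher on day 15. Of the 9 ER entry genes, 2, 2 and 1 were lower on days 5, 10 and 15 and 1 was higher on day 10, and of the 6 coatomer genes, 2, 1 and 0 were lower and none was higher. Of the 3 tested clathrin genes, 1, 2 and 2 were lower and 1 was higher on day 15, and of the 12 SNAREs, 2, 2 and 0 were lower and 1, 2 and 3 higher. The COPII subunit Sec13 (*CMJ112C*), which also serves the nuclear pore, had log2 fold changes of -1.11, -0.80 and -0.77 on days 5, 10 and 15 (edgeR adjusted p = 8.73e-05, 0.00116 and 0.00217). Arf B1A (*CMQ074C*) had -0.89 and -1.03 on days 5 and 10 (edgeR adjusted p = 3.43e-04 and 6.38e-05), and -0.21 on day 15 (adjusted p = 0.339), where without the untreated C1 it was -0.49 ± 0.15, adjusted p = 0.0146 and passed the test. Coatomer beta (*CMG048C*) had -0.70 and -0.89 on days 5 and 10 (edgeR adjusted p = 0.00504 and 7.38e-04), and -0.31 on day 15 (adjusted p = 0.2). The ER calcium pump gene *CMT241C*, which loads the ER with calcium, had -0.61 on day 10 (edgeR adjusted p = 1.61e-04), and the clathrin adaptor medium subunit *CMO202C* -0.58, -0.42 and -0.58 on the 3 days (adjusted p = 0.00724, 0.0415 and 0.00801).

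Of the 3 vacuolar sorting genes, 2 were higher on each day and none was lower, and of the 7 SM genes, 2, 3 and 3 were higher on days 5, 10 and 15 and none was lower. Of the 5 tether genes, 1, 4 and 1 were higher on the 3 days and 1 was lower on day 15. The VPS13 genes *CMM176C* and *CML142C* had log2 fold changes on day 10 relative to day 0 of 1.09 (edgeR adjusted p = 0.00277) and 0.96 (adjusted p = 7.29e-04). The Arf-like *CMT181C* had 0.78, 1.03 and 0.90 on days 5, 10 and 15 (edgeR adjusted p = 6.37e-04, 4.01e-05 and 2.25e-04). The UNC-18 homolog *CMS036C* had 0.91 on day 5 (edgeR adjusted p = 4.51e-04), the membrin-like *CMS441C* 0.71 (adjusted p = 0.00184), and Rab GDI (*CML223C*) 0.98 on day 10 (adjusted p = 7.65e-04). In a comparison chosen after the values were seen, means at 3 mM Ni were set beside those of untreated cultures. For *CMT181C*, *CML142C* and *CMS441C* they lay between untreated day 0 and the untreated cultures of days 5 and 10. For Sec61 alpha the mean at 3 mM Ni on day 10 (321 CPM) did so too. On day 15 it was 246 CPM, against 287 CPM in untreated cultures. *CMS441C* was called on day 5 and not on day 10. On day 10 the means of *CMA133C* and *CMS036C* at 3 mM Ni also lay between untreated day 0 and untreated day 10. All other genes called at 3 mM Ni on day 10 lay outside this range. The means of VPS28 (*CMN120C*) were 92.5 CPM at 3 mM Ni on day 10, 131 CPM on day 0 and 142 CPM in untreated day 10. In the same order, the ER resident gene *CMI165C* had 53.9, 68.5 and 94.9 CPM, and the syntaxin *CMI249C* 182, 160 and 124 CPM.

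**Figure D3:**
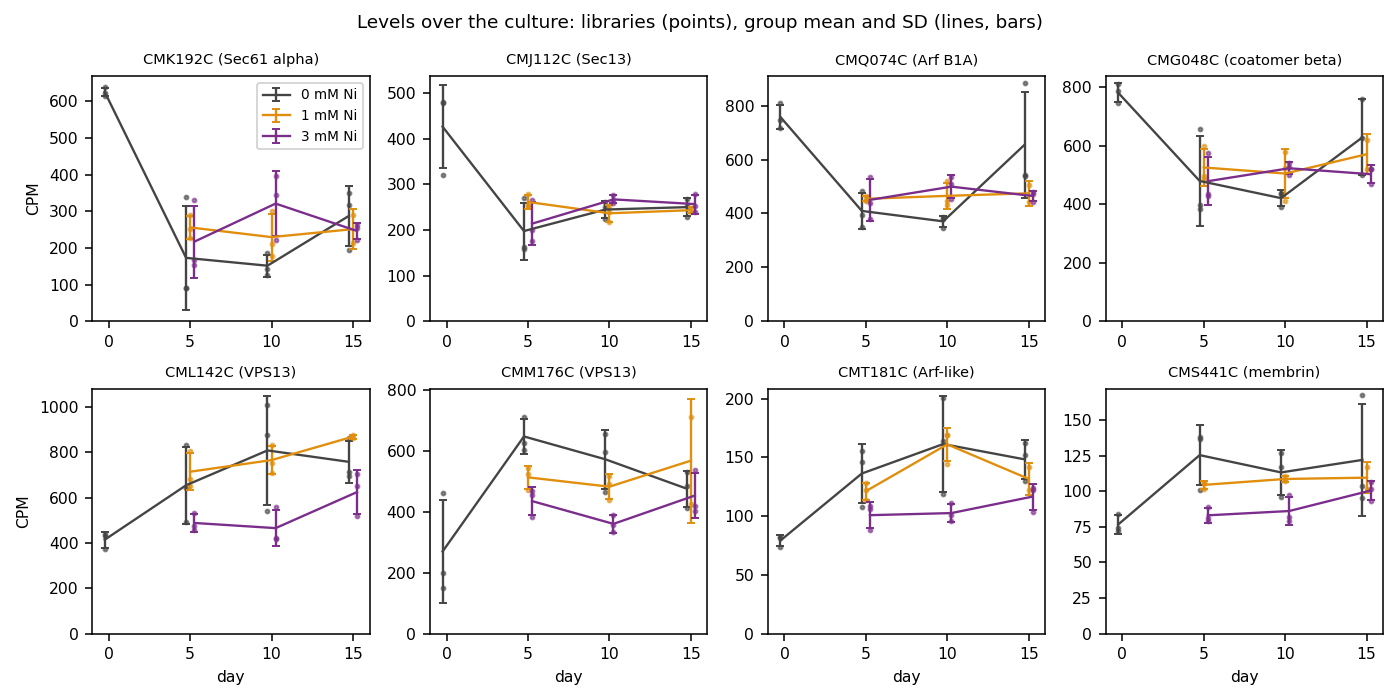
CPM of 8 genes over the culture (horizontal axes, days; vertical axes, CPM from 0). Points are libraries, lines join group means and bars are the SD, with untreated cultures in dark grey, 1 mM Ni in orange and 3 mM Ni in purple (n = 3, except 2 at 1 mM Ni on day 15). Sec61 alpha (*CMK192C*), at 625 ± 11.7 CPM on day 0, is lower at every later point, while the Arf-like *CMT181C* is higher in untreated cultures after day 0.

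**Figure D4:**
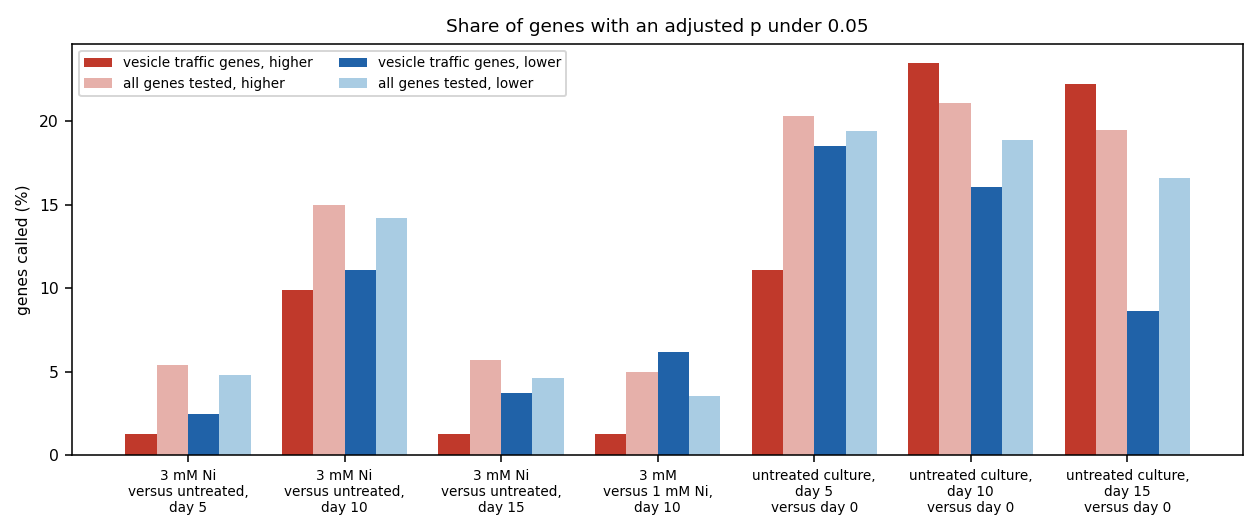
Share of genes called by edgeR (vertical axis, percent) in 7 comparisons, with the 81 vesicle traffic and secretion genes in dark colour and all 4796 genes tested in pale colour, higher in red and lower in blue. In the 3 comparisons of 3 mM Ni with untreated cultures both dark bars are below the pale ones. Between 3 and 1 mM Ni on day 10 the share of lower genes is 6.17% (5 genes), beside 3.54% of all genes. That of higher genes is 1.23%, beside 5%, and both directions together are 7.41%, beside 8.55%. These calls were lost without 3A, 3B, 1A or 1B of day 10.

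Beside these genes, 36 nuclear genes with other words for the secretory pathway in their description (Sar1, retromer, dynamin, protein disulfide isomerase, vacuolar and the like) were counted, all of them tested. At 3 mM Ni edgeR called 1 higher and 1 lower on day 5, and 5 higher and 4 lower on day 10 (25%). On day 15 it called 3 higher and 1 lower. Among all genes it called 10.2%, 29.2% and 10.3% on days 5, 10 and 15. At 1 mM Ni edgeR called none on any day, and DESeq2 called 0 on each day. At an unadjusted p under 0.05 edgeR had 5, 1 and 7 on days 5, 10 and 15, beside 1128, 420 and 436 of all 4796 genes. Their median log2 fold change at 3 mM Ni on day 10 was 0.05. *CMT196C*, the GTPase Sar1 that starts COPII coats, lay between 93.8 and 164 CPM in the libraries at 3 mM Ni on day 10 and between 63.6 and 67.7 CPM in untreated cultures (log2 fold change 1.07 ± 0.23, edgeR adjusted p = 0.00177). *CMB008C*, similar to the sorting protein DID4, had 1.07 ± 0.30 (edgeR adjusted p = 0.0111). The protein disulfide isomerase-like *CMK015C*, of a family that helps proteins fold in the ER, had 0.83 ± 0.30 on day 10 (edgeR adjusted p = 0.0374) and 1.32 ± 0.32 on day 15 (adjusted p = 0.0156). The lower ones on day 10 included *CMB089C*, similar to the vacuolar pH control protein CLN3 (-0.91 ± 0.25, edgeR adjusted p = 0.0105), *CMT466C*, a vacuolar iron transporter (-0.58 ± 0.14, adjusted p = 0.00476), and *CMJ319C*, similar to a mannosyltransferase that glycosylates secreted proteins (-0.53 ± 0.13, adjusted p = 0.00433). *CME145C*, a fructose-bisphosphate aldolase of sugar metabolism that a shared string of letters brought into the list, had -0.77 ± 0.26 (edgeR adjusted p = 0.0269). *CMN262C*, among the higher ones on day 10, entered through the word dynamin and is described as acting in chloroplast division. It had 0.51 ± 0.19 (edgeR adjusted p = 0.045).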

How the data were processed

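RNA-seq counts per gene came from 29 libraries of poly(A) RNA. According to the study's methods, the authors used Trimmomatic 0.39 for trimming, Hisat2 for alignment to genome build ASM9120v1 and GATK MarkDuplicates to drop optical duplicates, and deposited raw HTSeq counts on the reverse strand, 1 column per library. Some samples had an extra RNA clean-up, and which ones is not given in the sources used here.

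From these counts, genes were tested with edgeR 4.0.16 (R 4.3.3): TMM factors, a filter by expression that left out 188 of 4984 genes, 1 coefficient per condition over all libraries, the quasi-likelihood F test and Benjamini-Hochberg adjustment over 4796 genes, with a threshold of 0.05. All p-values with a ± SE come from that fit, or from the same fit without the libraries named beside them. The study's methods call the replicates of each condition biologically independent. TMM factors were 0.81 to 0.84 on day 0 and in C1 of day 15, and 0.95 to 1.11 in the other libraries. On simulated counts with 200 changed genes among 4767, the test for 3 mM Ni on day 10 recovered 175 with 8 false calls. Genes simulated at a log2 fold change of 1 had a median estimate of 0.98. Recovery at the fold changes and library spread of the vesicle traffic and secretion genes was not tested.

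Alternatives were DESeq2 1.42.0 (size factors, and its own test), nuclear genes only, the compared conditions only and a fold change over 1.5. Others were a filter of at least 1 count over all libraries together and a filter of at least 10 counts in every library. Limma-voom (limma 3.58.1) with the culture label as a block, and leaving out each library, were also used.

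Member genes, lists and tests were chosen with earlier results of these data known. Genes named were those called against the untreated control or between doses, the most abundant of each role, all coatomer, clathrin adaptor, SRP, signal peptidase and Sec61 genes, and, of the other pathway genes, up to 8 with the smallest adjusted p on day 10. Other named genes were added after their values were seen. Roles followed the words of the descriptions, but some genes were moved to the role their names give. These were Sec13, Sec23, Sec24, Sec31, SEC63, Erv14, p24, Bet1p, VAMP7, COG2, COG4, SEC34, VPS52, VPS53 and the SM proteins. The chloroplast SRP genes and the Rab regulators were set apart as roles of their own. Positions are those of RefSeq for ASM9120v1, which matched all 84 genes. *CMT617C*, *CMT354C*, *CMN143C* and *CMR127C* overlap a neighbouring gene.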

Additional observations from a re-analysis of the deposited data

Results flagged for a closer look

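For 3 genes the libraries of a Ni dose and of the untreated control overlapped on neither day 10 nor day 15, and lay on opposite sides of each other on the 2 days. The share of all genes with such a change of side is not given here. At 3 mM Ni the libraries of 47.2% of all genes did not overlap on day 10, and those of 26.6% on day 15. The 1 mM Ni group of day 15 held only 2 libraries. For the clathrin heavy chain *CMF103C* the log2 fold change at 3 mM Ni was -0.5523 on day 15 and 0.31 on day 10, and the interaction was -0.86 ± 0.32 (edgeR adjusted p = 0.151). For Arf B1A (*CMQ074C*) it was -0.4939 on day 15 and 0.43 on day 10 at 3 mM Ni (interaction -0.92 ± 0.24, edgeR adjusted p = 0.0811). At 1 mM Ni Arf B1A had -0.4634 on day 15 and 0.33 on day 10, and this difference between the days was not tested. For SRP19 (*CMR091C*) the values at 1 mM Ni were 0.5039 on day 15 and -0.28 on day 10, again with no test of the difference. The untreated library C1 of day 15 was the highest of its group for *CMF103C* and for *CMQ074C*, and without it the day 15 values at 3 mM Ni were -0.17 ± 0.20 (edgeR adjusted p = 0.704) for *CMF103C* and -0.22 ± 0.14 (edgeR adjusted p = 0.419) for *CMQ074C*. The interactions were then -0.48 ± 0.27 for *CMF103C* and -0.65 ± 0.19 for *CMQ074C*, with edgeR adjusted p of 0.377 for the clathrin gene and 0.182 for Arf B1A. At 1 mM Ni the day 15 value of *CMQ074C* was then -0.19 ± 0.16 and that of *CMR091C* 0.43 ± 0.21.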

How the results depend on the processing

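Counts of vesicle traffic and secretion genes called are given here for each setting that moved them by over 1.5 times. The cause was not tested. With the compared conditions only, where fewer libraries estimate the spread, 3 mM Ni gave 0 calls on day 5 and 0 on day 15, with 2 and 3 between the doses on days 5 and 10, and 6 and 3 in untreated cultures on days 5 and 15 against day 0. A fold change over 1.5 left 11 at 3 mM Ni on day 10, 3 between the doses on day 10, and 12, 12 and 15 in untreated cultures on days 5, 10 and 15. DESeq2 called 7 at 3 mM Ni on day 15, 10 between the doses on day 10 and 1 for the change of the 3 mM response between days 10 and 15. For these settings the shares of all genes are not given, so the counts cannot be set beside them. Leaving out C3 of day 5 and C1 of day 15 was a choice made after seeing the data. It gave 16, 26 and 1 at 3 mM Ni on days 5, 10 and 15, beside 33.3%, 41.8% and 6.32% of all genes. It gave 24 at 1 mM Ni on day 5, beside 40.8%, and 4 and 13 between the doses on days 5 and 10, beside 5.53% and 23.3%. In untreated cultures on day 5 it gave 37, beside 53.9%.

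Leaving out 1 library at a time gave, at 3 mM Ni, 0 to 10 calls for day 5, 9 to 21 for day 10 and 0 to 7 for day 15, 0 to 16 at 1 mM Ni on day 5, 0 to 1 and 0 to 12 between the doses on days 5 and 10, 0 to 3 for the change between days 10 and 15, and 15 to 32, 19 to 37 and 14 to 28 in untreated cultures on days 5, 10 and 15. The shares of all genes in most of these fits are not given here, so the ranges cannot be set beside them. Of the values of single genes, 959 kept their direction and side of the threshold, 151 missed the threshold, and none changed sign. The normalisation with DESeq2 size factors, nuclear genes only and both count filters moved no count by over 1.5 times.

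With the culture label as a replicate block (limma-voom), 2, 18 and 2 genes were called at 3 mM Ni on days 5, 10 and 15, 8 between the doses on day 10, and 23, 29 and 20 in untreated cultures. The libraries share only a label: of 18 pairs with 1 label, 2 had a correlation of deviations over 0.1 (median -0.04), and the block correlation was -0.05.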
